A study of Sus scrofa with 37 samples.

Results

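Heat shock proteins are molecular chaperones, and cochaperones are the partners that load, time or release them. Measured here was the mRNA abundance of 10 such genes in peripheral blood mononuclear cells (PBMC) of pigs, namely HSPH1, HSP90AA1, HSP90AB1, HSPA8, HSPA5, HSPB1, HSPD1, HSPE1, DNAJB1 and BAG3. The genes were listed by name, and all probe sets that the array annotation gives to them were taken, 15 of the 47845 on the array. Of these, 12 probe sets of 9 genes passed the filter on mean and SD over all arrays and were tested, among 28086 tested in all. HSP90AB1 did not pass, nor did 1 further probe set each of HSPB1 and HSPE1.

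Chaperones of the HSP70 and HSP90 classes bind unfolded or unfinished proteins and release them through cycles of ATP hydrolysis. J-domain proteins such as DNAJB1 start the HSP70 cycle, and nucleotide exchange factors such as HSPH1 and BAG3 end it. In the cytosol, misfolded protein frees the transcription factor HSF1 to induce many of these genes, whereas HSPA5 in the endoplasmic reticulum is a classical target of the unfolded protein response. In leukocytes these chaperones also serve stages of activation, antibody secretion and steroid hormone receptor function.

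PBMC are the lymphocytes and monocytes that a density gradient separates from blood. German Landrace piglets of both sexes and several litters received wheat, barley and soybean diets low (L), medium (M) or high (H) in digestible phosphorus after weaning. The diets thereby also differed in the ratio of calcium to phosphorus. All piglets were caged singly and fed ad libitum. At 28 days postnatum (dpn), before the diets, there were 19 arrays (6 of later L, 6 of later M and 7 of later H pigs), which together form the reference group R. The second sampling, at 63 dpn, gave 6 arrays of L, 5 of M and 7 of H from 18 of the same 19 pigs, pig 8 of M being measured at 28 dpn only. The deposited values are RMA levels in log2 units. The median over an array was 5.25 to 5.42, and precision is limited by how many arrays a group holds. Defining genes of T cells (CD3D, mean log2 level 10.43), B cells (MS4A1, 11.48) and monocytes (CD14, 8.58) were measured, and so was AHSP of red cell precursors, with a mean of 13.08. RMA values carry no detection call, and fewer cells of a type and less RNA per cell cannot be told apart in such bulk samples. At 63 dpn, H pigs 11 and 12 had the most extreme scores on the first principal component (-44.9 and -66.7), and the calls in the H pigs between their ages are also given without these arrays.

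In short, the members changed little. In the 7 H pigs, the mitochondrial chaperonin HSPD1, the endoplasmic HSPA5 and the constitutive cytosolic HSPA8 were higher at 63 than at 28 dpn, by factors of 1.29, 1.27 and 1.26, HSPD1 on 1 of its 3 probe sets. These calls were lost when each pig entered as a block (q = 0.0555, 0.0738 and 0.0979), where 1 probe set of BAG3 was called instead. Without the block, no member was called in the L or the M pigs, against the joint reference R, between the diets at 63 dpn, or in the difference between diets of the change with age. At 28 dpn, before the diets began, the later L pigs already had the highest mean levels of HSPD1, HSPA5 and HSPA8 among the groups of that age.

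**Figure D1:**
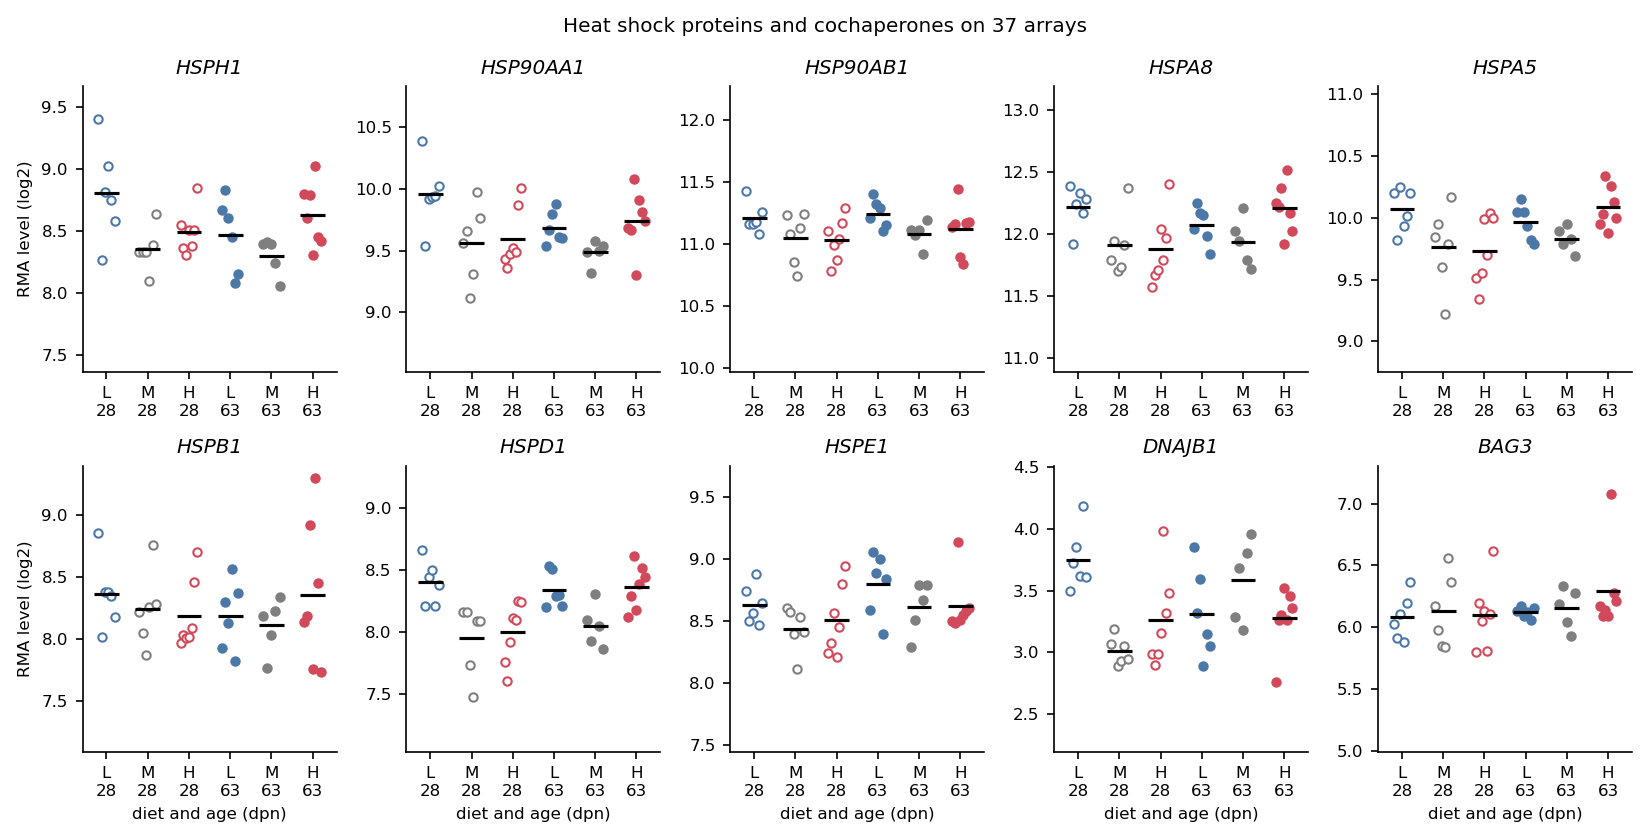
RMA level (log2) of the 10 member genes, each by its probe set of highest mean among those that passed, or for HSP90AB1 by its only probe set. Each point is 1 array, open at 28 dpn and filled at 63 dpn, in blue for L, gray for M and red for H, bars are group means, and every panel spans the same number of log2 units around the gene's mean. Between groups of 1 age the ranges overlap in all panels except for L and M at 28 dpn in DNAJB1 (3.50 to 4.18 above 2.89 to 3.19) and HSPD1 (8.21 to 8.66 above 7.47 to 8.16). The share of all tested probe sets with such a gap was not counted.

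HSPD1 is the ring-forming HSP60 of mitochondria, which folds imported proteins together with its lid HSPE1. On its probe set of highest mean (SNOWBALL_018182_s_st), the H arrays ranged from 7.60 to 8.25 (median 8.10) at 28 dpn and from 8.12 to 8.61 (median 8.39) at 63 dpn. The level rose in 7 of 7 H pigs, by 0.07 to 0.69, although the ranges of the 2 ages overlapped. The fitted log2 fold change was 0.37 (SE 0.12, q = 0.033, limma with Storey's q values). The L arrays ranged from 8.21 to 8.66 (median 8.41) at 28 dpn and from 8.20 to 8.53 (median 8.29) at 63 dpn, and 3 of 6 L pigs were higher at the later age. The M arrays ranged from 7.47 to 8.16 (median 8.09) at 28 dpn, and at 63 dpn they read 8.10, 7.93, 8.31, 8.05 and 7.86. The H pigs thus went from a range that ended near the lowest L array to one that lay on that of L, with log2 fold changes of -0.06 in L (SE 0.13) and 0.10 in M (SE 0.14). The gene has 2 other probe sets, which gave 0.05 (SE 0.15) and 0.15 (SE 0.14) in the H pigs and were not called (q = 0.464 and 0.282). The 3 probe sets of HSPD1 correlated over the 37 arrays by 0.185 to 0.42 only, so the rise is that of 1 probe set out of 3.

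HSPA5, also named BiP or GRP78, is the HSP70 of the endoplasmic reticulum and holds the sensors of the unfolded protein response inactive. Its H arrays ranged from 9.34 to 10.04 (median 9.70) at 28 dpn and from 9.88 to 10.34 (median 10.03) at 63 dpn. It rose in 6 of 7 H pigs, in pig 18 by an amount that rounds to 0 (10.00 at both ages), and fell in pig 11 from 9.99 to 9.88. The log2 fold change was 0.35 (SE 0.13, q = 0.0427). The L arrays had medians of 10.11 and 9.99 at the 2 ages, ranging from 9.82 to 10.25 and from 9.79 to 10.15. The M arrays had a median of 9.82 at 28 dpn (9.22 to 10.17) and read 9.89, 9.79, 9.95, 9.83 and 9.69 at 63 dpn. L (-0.10, SE 0.14) and M (0.07, SE 0.14) had log2 fold changes within about their SE of 0.

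HSPA8, the HSC70 that is present in unstressed cells and also uncoats clathrin vesicles, ranged in H arrays from 11.57 to 12.40 (median 11.79) at 28 dpn and from 11.92 to 12.52 (median 12.22) at 63 dpn. It rose in 5 of 7 H pigs and fell in pigs 11 and 18, by 0.12 and 0.39. The log2 fold change was 0.33 (SE 0.12, q = 0.0499), at the edge of the threshold. In L arrays the medians were 12.26 (11.92 to 12.39) and 12.10 (11.84 to 12.25), and the log2 fold change was -0.15 (SE 0.13). In M arrays the median was 11.85 (11.70 to 12.37) at 28 dpn, and the 63 dpn arrays read 12.02, 11.94, 12.21, 11.79 and 11.72, a log2 fold change of 0.02 (SE 0.14). At 63 dpn all 3 diets overlapped.

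**Figure D2:**
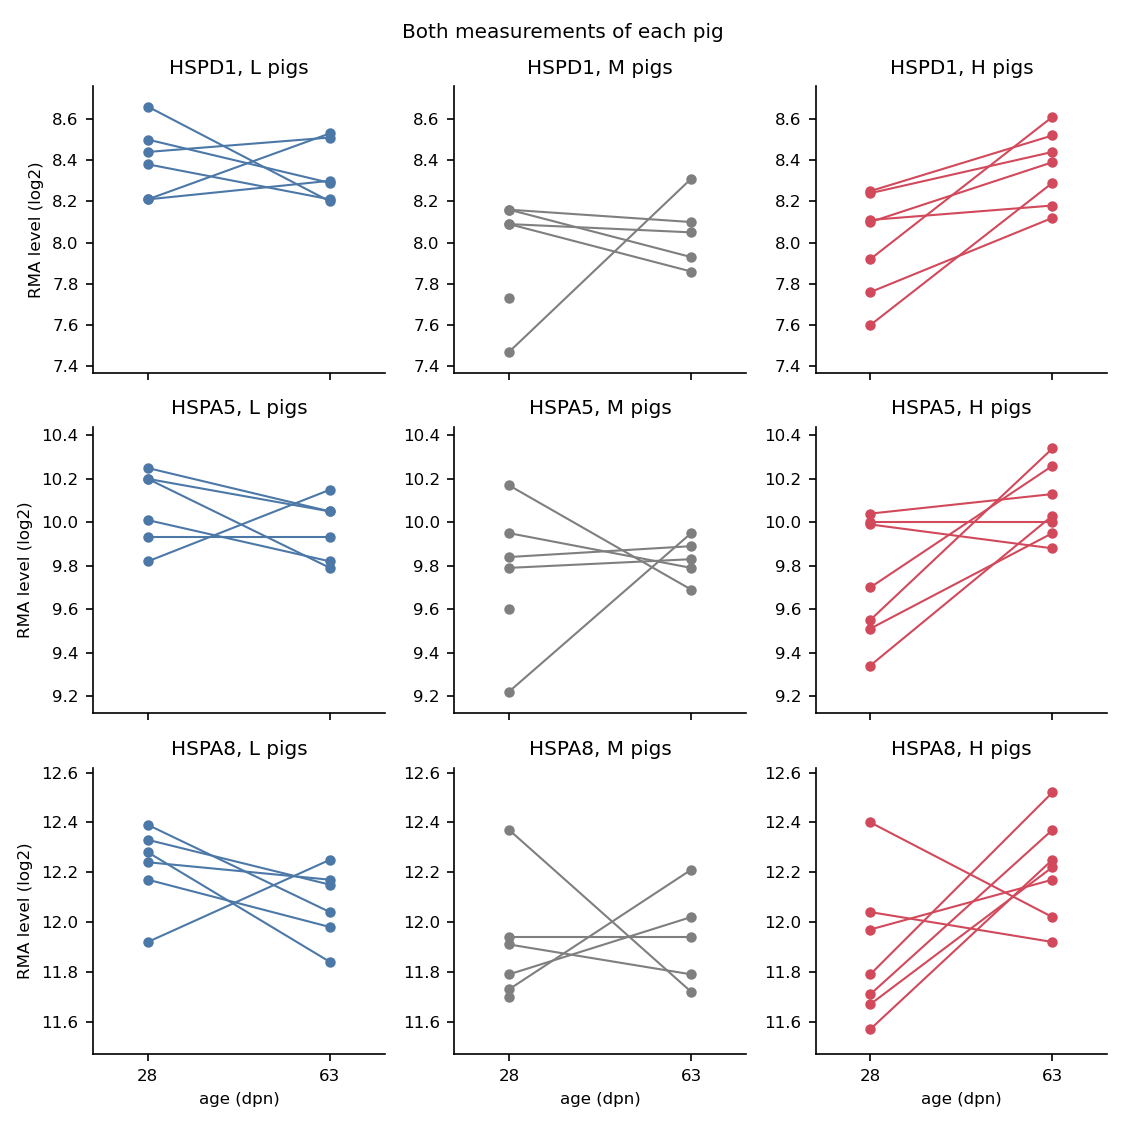
RMA level (log2) of HSPD1, HSPA5 and HSPA8 at 28 and 63 dpn, with a line for each pig measured at both ages and a single point for pig 8. HSPD1 was higher at 63 dpn in 7 of 7 H pigs, against 3 of 6 L and 1 of 5 M pigs.

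These 3 calls make 25% of the 12 tested member probe sets in the comparison of H pigs with their own 28 dpn arrays. Of all tested probe sets 12.5% were called there, and 7.99% were called as higher. All 12 member probe sets had log2 fold changes above 0, with a median of 0.16 against -0.02 over all tested, but the members correlate with each other and are not independent. The calls were not stable. Without the 63 dpn arrays of pigs 11 and 12 the log2 fold changes were 0.40, 0.36 and 0.32 for HSPD1, HSPA5 and HSPA8, and none was called (q = 0.0731, 0.101 and 0.12), with 3.14% called among all tested. With each pig as a block, which sets every pig against itself, the same 3 had q = 0.0555, 0.0738 and 0.0979. All 3 calls were also lost when the 28 dpn array of H pig 3, 6 or 9 or the 63 dpn array of H pig 9, 12 or 15 was left out, and without the 63 dpn array of pig 18 only HSPA8 was called. HSPA8 lost its call in 26 of 37 such fits (q up to 0.118), HSPA5 and HSPD1 in 7 each (q up to 0.101 and 0.0839), with log2 fold changes between 0.28 and 0.41 for all 3.

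Markers of other cells and states were called in the same comparison. Of 11 monocyte markers tested, 6 were called higher at 63 than at 28 dpn in H and 0 lower, and 11 of 11 log2 fold changes were above 0 (median 0.75). The mean of the centred monocyte markers ranged from -0.58 to 0.00 in H arrays at 28 dpn and from -0.24 to 1.66 at 63 dpn, where pig 12 read 1.66 and the next, pig 11, 0.59. Among the immediate early genes, which respond within minutes to stimulation or handling of cells, 2 of 11 were called higher and 1 lower, and the list's mean ranged from -0.17 to 0.11 at 28 dpn and from -0.17 to 1.10 at 63 dpn, the 1.10 being pig 12 and the next highest 0.21 in pig 9. Of the B cell markers 3 of 7 were called higher, and of the erythroid markers 2 of 5 were called lower. Of the platelet markers, 0 of 6 were called by limma. Their list mean was -3.62 in H pig 18 and -0.38 to 0.88 in the other H arrays at 63 dpn, and L pig 1 (-3.44) and M pig 5 (-2.38) were also low at that age. Without the 63 dpn arrays of pigs 11 and 12, 0 of 11 monocyte markers (median 0.43), 1 of 11 immediate early genes (median 0.02), 1 of 7 B cell markers and 0 of 5 erythroid markers were called. The part of these shifts in the rise of HSPD1, HSPA5 and HSPA8 was not tested.

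BAG3 joins HSP70 to selective autophagy and is strongly inducible by proteotoxic stress. Its probe sets differed. On the one of higher mean (SNOWBALL_017238_s_st) the H arrays ranged from 5.80 to 6.62 (median 6.11) at 28 dpn and from 6.09 to 7.08 (median 6.17) at 63 dpn, where pig 12 alone read above 6.28. The log2 fold change was 0.19 (SE 0.14, q = 0.211), and 0.08 without the 63 dpn arrays of pigs 11 and 12. On the other (SNOWBALL_024757_st) the H arrays ranged from 3.85 to 5.95 (median 5.70) and then from 5.52 to 6.69 (median 6.18), the L arrays from 5.41 to 6.72 (median 6.06) and then from 5.02 to 6.34 (median 5.35). It was higher at 63 dpn in 5 of 7 H pigs, by 0.48 to 1.75, and lower in 6 of 6 L pigs, by 0.12 to 1.20, and in 4 of 5 M pigs. The log2 fold changes were 0.75 in H (SE 0.31, q = 0.068), -0.52 in L (SE 0.34, q = 0.934) and -0.18 in M (SE 0.35, q = 0.998). The change of H differed from that of L and M by 1.10 (SE 0.40, q = 0.0751), the lowest q of a member in that comparison. With each pig as a block the H change had an SE of 0.20 and was called (q = 0.0211), the only member so called, and the difference between diets was 1.20 (SE 0.26, q = 0.0551). Without the 63 dpn arrays of pigs 11 and 12 the H change was 0.56 (SE 0.34, q = 0.248), and without that of pig 3 it was 0.84 and called (q = 0.0453). Over the 37 arrays both probe sets of BAG3 correlated by 0.472.

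DNAJB1, the inducible HSP40 that delivers substrates to HSP70, was measured at a low level, with a mean of 3.35 over all arrays. At 28 dpn the later L pigs ranged from 3.50 to 4.18 (median 3.67), the later M pigs from 2.89 to 3.19 (median 3.0) and the later H pigs from 2.90 to 3.98 (median 3.16). L and M did not overlap before they had received different diets. How many of all tested probe sets separated these groups likewise was not counted. At 63 dpn the L arrays ranged from 2.89 to 3.85 (median 3.23), the M arrays read 3.29, 3.68, 3.18, 3.80 and 3.96, and the H arrays ranged from 2.76 to 3.52 (median 3.30). The medians of L and M had thus changed order, but their ranges overlapped and the difference of M from L was not called (0.28, SE 0.22). Compared with 28 dpn, 5 of 6 L pigs were lower and 5 of 5 M pigs higher. The log2 fold changes were -0.44 in L (SE 0.17, q = 0.816) and 0.57 in M (SE 0.18, q = 0.939), neither called. In H pigs it was 0.01 (SE 0.16).

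HSPH1 (HSP110) is the exchange factor that resets HSP70 and helps it to dissolve aggregates. It ranged from 8.27 to 9.41 (median 8.79) in L, from 8.10 to 8.64 (median 8.33) in M and from 8.31 to 8.85 (median 8.51) in H arrays at 28 dpn. At 63 dpn the L range was 8.08 to 8.83 (median 8.53) and that of H 8.31 to 9.03 (median 8.61), and the M arrays read 8.40, 8.41, 8.40, 8.24 and 8.06. It was lower at the later age in 5 of 6 L pigs and higher in 4 of 7 H pigs, and neither the L change of -0.34 (log2, SE 0.15, q = 0.849) nor the H change of 0.13 (SE 0.14, q = 0.313) was called.

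HSP90AA1 is the inducible cytosolic HSP90 that matures kinases and steroid receptors. Its medians at 28 and 63 dpn were 9.94 and 9.64 in L, 9.61 and 9.50 in M and 9.49 and 9.74 in H, with all arrays between 9.12 and 10.39. The log2 fold changes were -0.27 in L (SE 0.14, q = 0.905), -0.08 in M (SE 0.15, q = 0.998) and 0.15 in H (SE 0.13, q = 0.274). HSP90AB1, the constitutive isoform, varied too little to pass the filter (SD 0.17 around a mean of 11.12) and was not tested. Its medians lay between 11.04 and 11.25 in all 6 groups, and a fit without the filter gave 0.08 (SE 0.09, q = 0.359) for the change in H.

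HSPE1, the lid of the HSPD1 chaperonin, is the neighbour of HSPD1 in the RefSeq gene table. Its medians at 28 and 63 dpn were 8.60 and 8.86 in L, 8.47 and 8.67 in M and 8.45 and 8.55 in H, and the log2 fold changes were 0.16 (SE 0.14), 0.16 (SE 0.14) and 0.12 (SE 0.13). These changes were of a like size in all diets but near their SE, and none was called. With 1 array left out, the change in H ranged from 0.04 to 0.18. A second probe set, at 1.81 to 2.65, lay below the filter. HSPB1 (HSP27), a small heat shock protein that holds unfolded proteins without using ATP, had the widest spread in H arrays at 63 dpn, from 7.73 in pig 18 to 9.30 in pig 12 (median 8.19, SD 0.58). Its SD in the other groups was 0.22 to 0.30, and its log2 fold change in H was 0.17 (SE 0.19, q = 0.323) and 0.01 without the 63 dpn array of pig 12. Its second probe set did not pass (SD 0.19), ran with the first over the arrays (r = 0.771) and had -0.03 (SE 0.11) for the change in H in a fit without the filter.

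**Figure D3:**
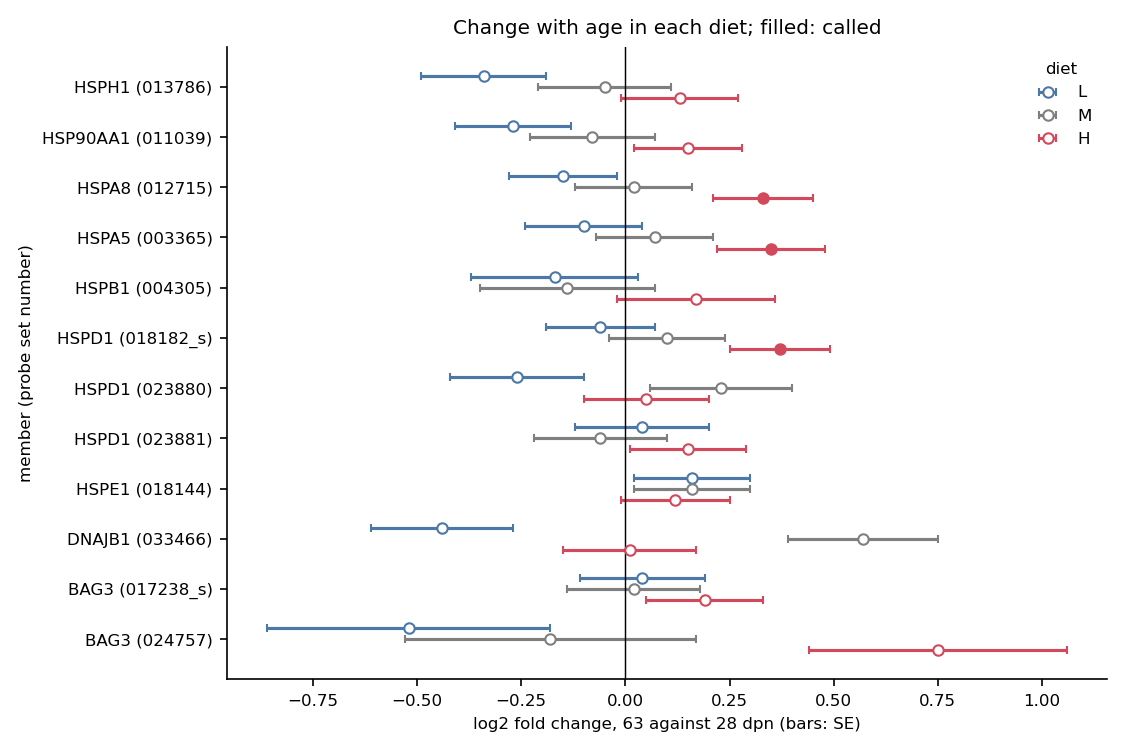
Log2 fold change from 28 to 63 dpn (x axis) of the 12 tested member probe sets (y axis) in L, M and H pigs, as points with bars of 1 SE, filled where called. Filled points are HSPA8, HSPA5 and 1 of 3 probe sets of HSPD1 in H, and the H point lies above 0 for all 12, the L point for 3 and the M point for 7.

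Against the joint reference R, the comparison of the study, no member was called in any diet by limma. In H samples the log2 fold changes of HSPD1, HSPA5 and HSPA8 were 0.26 (SE 0.12, q = 0.151), 0.24 (SE 0.11, q = 0.161) and 0.21 (SE 0.11, q = 0.197). All 7 H arrays at 63 dpn lay above the R mean for HSPD1 and HSPA5, and 6 of 7 did for HSPA8. So did 6 of 6 L arrays for HSPD1 and 4 of 6 for HSPA5 and for HSPA8. Of 5 M arrays, 1 did for HSPD1 and 2 each for HSPA5 and HSPA8. How many of all tested probe sets lay likewise was not counted. In L samples the log2 fold change of HSPD1 was 0.23 (SE 0.12, q = 0.506), near that of H. In H samples, 2 of the 12 member probe sets had an unadjusted P under 0.05. This is 16.7% against 18.3% of all tested, and 2.09% of all tested were called. With each pig as a block, R is replaced by the pigs' own arrays, so the comparison is the same as that between the ages of the H pigs. There 1 was called, the probe set of BAG3 above. In L samples 1 member probe set (8.33%) had an unadjusted P under 0.05, against 9.23% of all tested. None was called there, with 0.0249% called among all tested. In M samples 0 had an unadjusted P under 0.05, against 5.07% of all tested, and 0.0178% of all tested were called. The 3 comparisons share the R arrays. For HSPD1 the R mean was 8.11 and that of the later H pigs within it 8.0, so the shift of H was smaller against R than against its own 28 dpn arrays.

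Between the diets at 63 dpn, limma called 0 members and 0% of all tested probe sets in each of the 3 comparisons. The member probe sets with an unadjusted P under 0.05 numbered 1 for H against L, 1 for H against M and 0 for M against L. Of all tested, 8.57%, 9.16% and 3.1% had such a P. The member in both comparisons of H was the probe set SNOWBALL_024757_st of BAG3 (0.67, SE 0.33, q = 0.531, and 0.72, SE 0.35, q = 0.397). HSPD1 differed by 0.02 (SE 0.15) between H and L and by 0.31 (SE 0.16, q = 0.397) between H and M. Over the 12, the median log2 fold change was 0.09 for H against L and 0.25 for H against M, with -0.01 over all tested in both. Averaged over the diets, the change with age was called for 0 members and 1.09% of all tested. An unadjusted P under 0.05 was found for 0 members and 13.4% of all tested. The L and the M pigs taken alone had 0 members and 0% of all tested called. In L, 2 member probe sets (16.7%) had an unadjusted P under 0.05, against 5.53% of all tested, and in M 1 (8.33%), against 5.2%. Males and females differed in 0 members (0 with an unadjusted P under 0.05, against 3.17% of all tested) and in 0.089% of all tested.

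Whether the H pigs changed otherwise than the L and M pigs was tested as the difference of the changes. Here 0 members and 0% of all tested were called by limma, and 4 of 12 member probe sets (33.3%) had an unadjusted P under 0.05 against 20.1% of all tested. As the members correlate with each other, these 4 are not independent. The differences were 0.39 for HSPA8 (SE 0.16, q = 0.0918), 0.36 for HSPA5 (SE 0.16, q = 0.11) and 0.35 for HSPD1 (SE 0.16, q = 0.116). The probe set SNOWBALL_024757_st of BAG3 was called without the 28 dpn array of M pig 13 (1.23, q = 0.0454) or the 63 dpn array of H pig 3 (1.19, q = 0.0494). About equal parts of the differences of HSPA8, HSPA5 and HSPD1 lay at each age. At 28 dpn the H pigs lay under the average of the other diets by 0.19, 0.18 and 0.18 (-0.19, -0.18 and -0.18, SE 0.10, 0.11 and 0.10) and above it by 0.20, 0.18 and 0.17 at 63 dpn (SE 0.11, 0.11 and 0.10). For HSPH1 the parts were -0.08 (SE 0.12) and 0.25 (SE 0.12), and for HSP90AA1 -0.17 (SE 0.11) and 0.16 (SE 0.12).

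The groups of pigs were also set against each other at 28 dpn, when none had received a diet. Limma called 0 members and 0% of all tested, but 7 of 12 member probe sets (58.3%) had an unadjusted P under 0.05 against 11.3% of all tested. These were HSPH1 (q = 0.231), HSP90AA1 (q = 0.229), HSPA8 (q = 0.24), HSPA5 (q = 0.256), DNAJB1 (q = 0.214) and 2 probe sets of HSPD1 (both q = 0.214). In each of them the later L pigs had the highest mean, but the members correlate with each other and are not independent. For HSPD1 the 28 dpn means were 8.40 ± 0.18 (SD, n = 6) in L, 7.95 ± 0.29 (n = 6) in M and 8.0 ± 0.25 (n = 7) in H. For HSPA5 they were 10.07 ± 0.18, 9.76 ± 0.32 and 9.73 ± 0.28, and for HSPA8 12.22 ± 0.17, 11.91 ± 0.25 and 11.88 ± 0.28. With array weights 1 member was called in this comparison, DNAJB1 (q = 0.0472). Litter and sire are not in the labels used here, and their part was not tested.

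The members varied together over the arrays, which share pigs, diets and array-wide differences. Of 45 pairs of members 22 correlated above 0.5 (Pearson's r over 37 arrays, median 0.493, 1 pair below 0). The closest pairs were HSPA5 with HSPD1 (0.878) and HSPA8 with HSPA5 (0.852), chaperones of 3 different compartments. HSPH1 and HSP90AA1 were each closest to HSPA8 (0.771 and 0.755), HSP90AB1 and HSPE1 to each other (0.711), and HSPB1 to HSP90AA1 (0.722). After the 6 group means were taken out, HSPA5 and HSPD1 still correlated by 0.831. DNAJB1, closest to HSPD1 (0.308), stood apart from the rest, with a median r of 0.195 and a low mean level of 3.35. BAG3, closest to HSPB1 (0.552), had a median r of 0.28. HSPD1 and HSPE1, the partners of 1 chaperonin, were not each other's closest members.

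**Figure D4:**
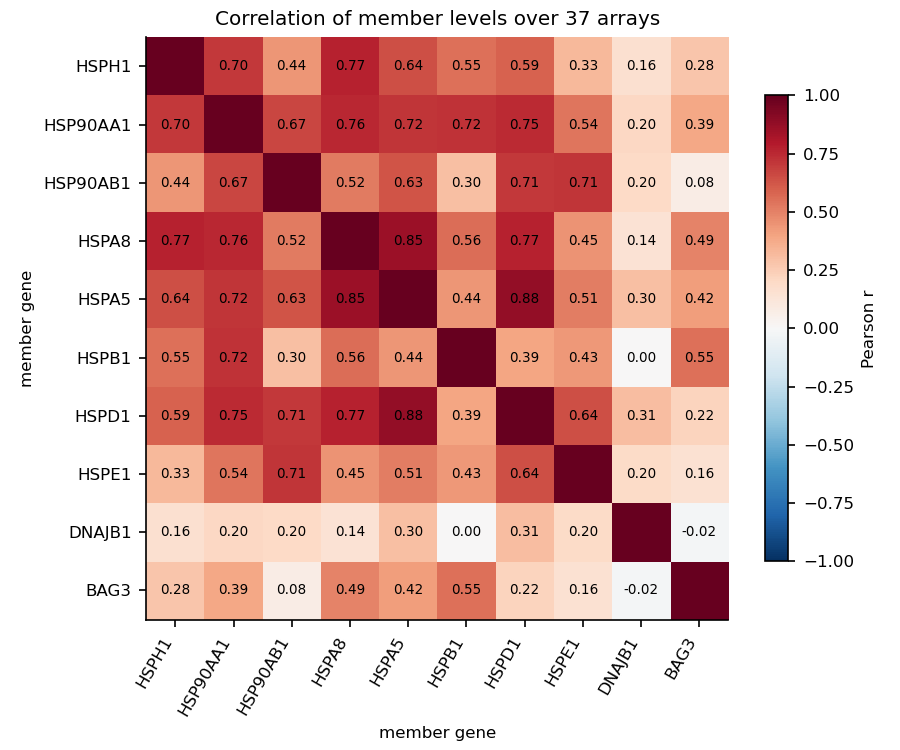
Pearson's r between the levels of the 10 members over the 37 arrays, both axes listing the genes and colour running from -1 (blue) to 1 (red). The block of HSPA8, HSPA5 and HSPD1 reaches 0.878, and DNAJB1 has no value above 0.308.

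The mean of the 9 centred members that passed went with array-wide measures as well. Over the 37 arrays it correlated by -0.681 with the array median and by -0.634 with the first principal component computed without the members, which held 13.8% of the variance. With the marker lists it correlated by 0.627 (T cells), 0.631 (B cells), 0.645 (NK and cytotoxic cells), 0.501 (monocytes), 0.308 (neutrophils), 0.0312 (platelets), 0.601 (immediate early genes) and -0.374 (erythroid cells). Of 28074 other probe sets, 2527 (9%) correlated with the members' mean above 0.5 and 96 (0.342%) above 0.8. Among the named genes most like it were EIF4H, a translation initiation factor (0.891), MAPK1IP1L (0.885), the adaptor CRKL (0.872) and the membrane glycoprotein BSG (0.871). CRKL is also among the genes that the study lists as altered in these samples. The members' mean was highest on the 63 dpn array of H pig 12 (0.40), the 28 dpn array of L pig 1 (0.39) and the 63 dpn array of H pig 9 (0.34), and lowest on the 28 dpn array of M pig 13 (-0.41). The H pigs 11 and 12, both at the end of the principal component, were unlike in the members, with -0.13 and 0.40.

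**Figure D5:**
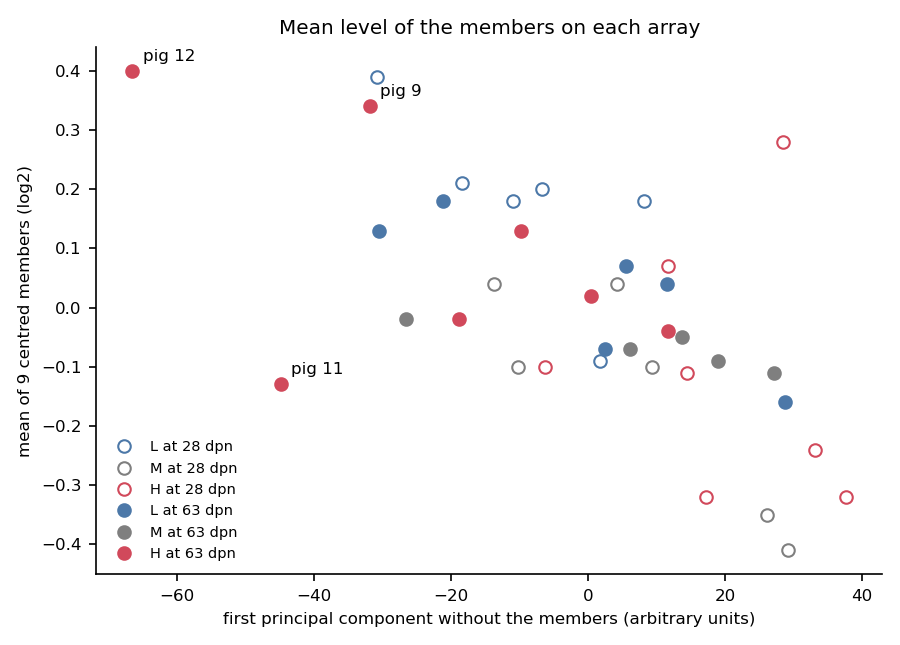
Mean of the 9 centred members that passed (y axis, log2) against the first principal component of all other tested probe sets (x axis, arbitrary units), 1 point per array, open at 28 dpn and filled at 63 dpn, blue for L, gray for M, red for H. The mean was higher toward the negative end (r = -0.634), where pig 12 lay at 0.40 and pig 11 at -0.13.

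Of 66 other genes of protein folding tested between the ages of the H pigs, 10 were called higher and 4 lower, 21.2% against the 12.5% of all tested above. Without the 63 dpn arrays of pigs 11 and 12 it was 2 of 66, or 3.03% against 3.14%, namely FKBP5 and PDIA6, and with each pig as a block 10, or 15.2% against 10.5%. Of 6 other HSP70 and HSP110 genes tested, HSPA13, a microsomal HSP70, rose by 0.35 (SE 0.12, q = 0.0342) and HSPA12B, a distant endothelial HSP70, fell by 0.39 (SE 0.13, q = 0.033). HYOU1, the HSP110 of the endoplasmic reticulum, was not called (0.32, SE 0.14, q = 0.0789), nor was HSPA4L (0.20, q = 0.2). Of 16 J-domain cochaperones, DNAJB14 rose by 0.35 (SE 0.13, q = 0.0484), while DNAJC8, a nuclear one bound to spliceosomes, fell by 0.52 (SE 0.17, q = 0.0326). DNAJB5 (0.20, q = 0.209) and DNAJC19 (0.31, q = 0.1) were not called.

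Of the partners of HSP90, 4 of 11 were called (36.4% against 12.5% of all tested), 3 of them higher. The list's median change was 0.29 (log2) against -0.02 over all tested. FKBP5, which lowers the hormone binding of the glucocorticoid receptor, rose by 0.68 (SE 0.14, q = 0.00514) and was also called against R, with 0.57 (SE 0.12, q = 0.0169), a call lost (q = 0.179) when pigs 11 and 12 at 63 dpn were left out. The study lists FKBP5 among its altered genes from these samples, so it is no independent evidence. AHSA2, an activator of the HSP90 ATPase, rose by 0.51 (SE 0.15, q = 0.0228) and CDC37L1, a relative of the kinase cochaperone CDC37, by 0.35 (SE 0.12, q = 0.0362). SGTA, which takes membrane proteins from HSP70, fell by 0.45 (SE 0.17, q = 0.048). FKBP4 (0.36, q = 0.0606) and CACYBP (0.29, q = 0.091) were not called. Without the 63 dpn arrays of pigs 11 and 12, only FKBP5 kept its call between the ages (0.55, q = 0.0377). That is 9.09% of the list against 3.14% of all tested. AHSA2 (0.54, q = 0.055), CDC37L1 (0.31, q = 0.12) and SGTA (-0.45, q = 0.12) then lost theirs. With each pig as a block, 3 of 11 were called, 27.3% against 10.5% of all tested.

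Of 14 genes of the endoplasmic reticulum, where HSPA5 acts, 5 were called higher and 1 lower in the H pigs, with a median of 0.14. This is 42.9% called, against 12.5% of all tested. HERPUD1, a component of protein degradation there, rose by 0.45 (SE 0.14, q = 0.0281), and against R by 0.42 (SE 0.12, q = 0.0418, or q = 0.231 with pigs 11 and 12 at 63 dpn left out). The stress sensors ATF6 (0.48, SE 0.16, q = 0.0355) and ERN1 (0.53, SE 0.19, q = 0.0411) and the disulfide isomerase PDIA6 (0.46, SE 0.14, q = 0.0209) also rose. XBP1, the transcription factor that ERN1 splices, was not called (0.16, q = 0.275), nor was the isomerase PDIA4 (0.26, q = 0.143). The others called were MANF, higher (0.43, q = 0.0389), and P4HB, lower at a mean level of 2.63 (-0.45, q = 0.029), both named after their values had been seen. Without the 63 dpn arrays of pigs 11 and 12, only PDIA6 was called (0.53, q = 0.0404), 7.14% of the list against 3.14% of all tested. ERN1 then had 0.20 (q = 0.261) and ATF6 0.28 (q = 0.231), and HERPUD1, MANF and P4HB also lost their calls. With each pig as a block, 5 of 14 were called, 35.7% against 10.5% of all tested.

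In the remaining lists limma called 0 genes in that comparison. Of the regulators of the heat shock response, HSF2 had 0.22 (SE 0.17, q = 0.234) and HSBP1, which binds the trimers of HSF1, -0.33 (SE 0.13, q = 0.0548). Of 5 nucleotide exchange factors, BAG6 had -0.30 (SE 0.13, q = 0.0723) and BAG4 0.19 (q = 0.241). Of 7 small heat shock proteins, CRYAA had -0.42 (SE 0.16, q = 0.0559) and HSPB7 -0.27 (q = 0.224), with a median of -0.09 over the list. Of 4 subunits of the cytosolic chaperonin, CCT7 had 0.30 (SE 0.13, q = 0.0833) and CCT8 -0.09 (q = 0.409). TRAP1, the mitochondrial HSP90, was at 0.06 (SE 0.12, q = 0.428).

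The lists beside the members are described by the same rule. Of the immediate early genes, DUSP1, a phosphatase of MAP kinases, rose by 0.77 (SE 0.25, q = 0.0288) and KLF6 by 0.76 (SE 0.18, q = 0.0069) in the H pigs, whereas IER3 fell by 0.49 (SE 0.18, q = 0.0489). EGR2 (0.34, q = 0.0729) and JUN (0.37, q = 0.0662) were not called. Of the monocyte genes, TYROBP, the DAP12 adaptor, rose by 0.75 (SE 0.26, q = 0.037), CD14 by 0.85 (SE 0.28, q = 0.0319), VCAN by 0.82 (SE 0.21, q = 0.0101) and AIF1 by 0.83 (SE 0.28, q = 0.0361). DUSP1 and TYROBP are also among the genes that the study lists as altered in these samples, so they are no independent evidence. Of the B cell genes, PAX5 (0.56, q = 0.0196), MS4A1 (0.56, q = 0.0265) and BANK1 (0.61, q = 0.0183) rose, and of those of cytotoxic cells KLRK1 (1.60, SE 0.47, q = 0.0202). The erythroid genes GYPC (-0.78, q = 0.0141) and EPB42 (-0.91, q = 0.0204) were lower, and limma called 0 of 6 neutrophil markers (S100A8 0.92, q = 0.0811) and 0 of 7 T cell markers (CD3D 0.21, q = 0.185).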

How the data were processed

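RNA of PBMC was labelled and hybridised to porcine snowball arrays, and the scans were read with GCOS 1.1.1 (version from the submitters' processing notes). The authors normalized the arrays by RMA, and the values they deposited are log2 levels. The table held 47845 probe sets on 37 arrays, and 0 columns belonged to no sample. Diet, age, sex and pig number came from the labels. After removal of 123 control probe sets, those with a mean over 2.5 and an SD over 0.23 were kept, the limits of the study. This leaves near-constant genes such as HSP90AB1 untested. It kept 28086 probe sets, more than the study reports, and limma called 588 in H against R, fewer than the study reports. The study's set of probe sets and calls was thus not reproduced exactly. Names came from the array annotation (26426 probe sets with 1 symbol, 0 with several, 426 symbols updated). No coordinates are given, as a genome build of the array is not given in the sources used here.

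All 37 arrays were fitted by lmFit and eBayes of limma 3.58.1 (R 4.3.3). The model with sex and 4 groups (R at 28 dpn, the 3 diets at 63 dpn) gave the comparisons with R and between diets. A fit with 6 groups of diet and age and sex gave each diet's own change with age, their mean, the difference between them and the test at 28 dpn. The sire of the study's model is not in the labels. All P values were turned into Storey's q values over all tested probe sets (lambda from 0.05 to 0.95 in steps of 0.05, spline of 3 degrees of freedom), and a call needed both P and q at or under 0.05. The fit was tested on simulated data.

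The members and gene lists were chosen with earlier results of these data known. A member is represented by its passing probe set of highest mean. Named of each other list are up to 4 called genes and up to 2 uncalled genes of lowest P in H against R, and in addition the 5 named genes most correlated with the members' mean, of which 1 is not reported here, and each member's best-correlated member. Exceptions are MANF and P4HB. Markers and the measures of the array as a whole were named to stand beside the results.

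The pig number was read from the sample titles, and an equal number at both ages was taken as 1 animal, which pairs the arrays. The titles hold 19 such numbers, whereas the paper gives 18 piglets. The deviations of both arrays of a pig from the group means correlated by -0.162 to 0.235 over 18 pigs, with 8 over 0.1. As the study's model has no pig term, the pig entered as a block only among the alternatives. The others were Benjamini-Hochberg adjustment, unmoderated variances, no filter, a filter at a mean over 5 and an SD over 0.3, array weights, only the groups compared, no sex term, leaving out the 63 dpn arrays of H pigs 11 and 12 or each array in turn, centring on the array median, repeated quantile normalization and the median over a gene's probe sets. For the lists, the fits with the block and without the arrays of pigs 11 and 12 were added after seeing the data. No pair of arrays was a repeat (highest correlation 0.379 after centring each probe set).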

Additional observations from a re-analysis of the deposited data

Results flagged for a closer look

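Of 60 groups of arrays checked (10 members, 6 groups), 4 held an array far from the others of its group by Dixon's test, of which chance gives about 1 in 20. HSPA8 read 12.37 in pig 19 of M at 28 dpn, where the other 5 arrays lay between 11.70 and 11.94. HSPE1 read 9.14 in H pig 9 at 63 dpn, against 8.48 to 8.60 in the other H arrays. DNAJB1 read 2.76 in H pig 3 at 63 dpn, against 3.26 to 3.52. BAG3 read 7.08 in H pig 12 at 63 dpn, against 6.09 to 6.28. All 4 belong to different pigs.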

How the results depend on the processing

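The count of called member probe sets stayed at 0 in all alternatives for L and M against R, for the diets against each other at 63 dpn, for the mean change with age, for L and M alone and for sex. For the H pigs between their ages it was 3, and 0 with Benjamini-Hochberg adjustment, with repeated quantile normalization, with only the groups compared or without the 63 dpn arrays of pigs 11 and 12. It was 1 with the stricter filter, which left 3 member probe sets, and 1 with the replicate block of pigs as fixed effects, BAG3 in both. With the replicate block as random effect, and with array weights, HSPD1 and HSPA5 were called. For H against R the replicate block gave the same 1 call of BAG3, as the block makes it the same comparison as that between the ages of the H pigs. At 28 dpn array weights gave 1. Leaving out 1 array gave 0 to 3 for the H pigs between their ages and 0 to 1 for the difference between diets. The cause of these losses was not tested.

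Members near 0 changed sign. Against R in H, DNAJB1 went to 0.01 with the replicate block and HSPH1 and HSP90AA1 to -0.01 and -0.04 with repeated quantile normalization. Between the ages in H, DNAJB1 went to -0.03 without pigs 11 and 12 and HSPE1 to -0.01 with quantile normalization. In the difference between diets, HSPE1 went to 0.00 with array weights and 0.02 after centring, and DNAJB1 to 0.01 after centring and 0.00 with quantile normalization. With 1 array left out, H against R ranged from -0.01 to 0.12 for HSP90AA1, -0.06 to 0.20 for HSPB1 and -0.10 to 0.04 for DNAJB1. The change in H ranged from -0.04 to 0.14 for DNAJB1, and the difference between diets from -0.12 to 0.02 for HSPE1 and -0.11 to 0.07 for DNAJB1. The 5 to 7 arrays a group limit the precision to an SE of 0.12 to 0.31 for the change in H.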
